A study of Mus musculus with 4 samples.

Results

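The nuclear genes of the mitochondrial respiratory chain and of ATP synthase were described in stromal cells sorted from the mouse large intestine. Members were all gene symbols of the deposited tables that start with Nduf, Uqcr, Atp5, Sdha, Sdhb, Sdhc or Sdhd, or with Cox followed by a digit from 4 to 8, without symbols that contain -ps. This gave 92 of 23284 genes. They comprised 36 subunits of complex I, 4 of complex II, 8 of complex III, 19 of complex IV, 15 of ATP synthase (complex V) and 9 assembly or accessory factors. The remaining match, Cox4nb, is an older symbol of Emc8, a protein of the endoplasmic reticulum that neighbours Cox4i1 in the genome and is not part of the chain. Its values ranged from 3.93 to 5.20 FPKM (fragments scaled to transcript length and to the size of the library).

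Living podoplanin-positive cells without CD45, CD31 and EpCAM had been sorted from whole colons, so that fibroblasts were kept and leukocytes, blood endothelium and epithelium were left out. There were 4 groups with 1 library each: BALB/c mice without a knockout (wild type), BALB/c Rag2 KO (Rag2 is needed to make mature T and B cells), wild-type C57BL/6J, and IL-10 KO on C57BL/6J (Il10 encodes an anti-inflammatory cytokine). The labels give no age, no number of animals per library and no further treatment. With 1 library per group there was no replicate error and no test, and "higher" and "lower" below describe these libraries only. The knockouts are on different strains, so each was compared with the wild type of its own strain, and the wild types were compared with each other.

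The depth, estimated from the steps between low values, was 8340000 to 9880000 fragments per library. Pdpn, the gene of the sorting marker, had 158 to 293 FPKM, and the 8 fibroblast markers summed to 11788 to 13545 FPKM. The library labelled IL-10 KO had 129.9 FPKM of Il10, against 3.33 in its wild type, which goes against a loss of the whole transcript, and the values carry no exon information. The genotype of that library was therefore not checked, and each difference below that involves it rests on the label. Rag2 was listed at 0 in 3 libraries and at 0.712 FPKM in Rag2 KO and checks nothing, whereas the antibody joining chain gene Igj was at 428 FPKM in the BALB/c wild type and at 1.36 in Rag2 KO. Other cell types were not absent. The 8 leukocyte markers summed to 156, 269, 81.7 and 891 FPKM in BALB/c wild type, Rag2 KO, C57BL/6J wild type and IL-10 KO, the 8 epithelial markers to 22.0, 119.9, 72.3 and 289, and the 6 smooth muscle markers to 691, 356, 654 and 284. None of these marker genes was at 0 in any library. The Y-linked gene Ddx3y was at 16.9 FPKM in the C57BL/6J wild type and at 0.0269 in IL-10 KO, so sex-linked expression also separated that pair.

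The respiratory chain passes electrons from NADH (at complex I) and from succinate (at complex II) through ubiquinone, complex III and cytochrome c to complex IV, which reduces oxygen. Complexes I, III and IV pump protons out of the mitochondrial matrix, and ATP synthase uses the returning protons to make ATP. Most subunits are encoded in the nucleus and imported. A few catalytic subunits are encoded by mitochondrial DNA. None of the 26 symbols searched for them had a row in the deposited tables, so they could not be described. Several complex IV subunits come in a widely expressed form and in forms restricted to muscle, lung or testis.

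The chain was expressed at high and similar levels in all libraries. The median over the 92 members was 39.1 FPKM in BALB/c wild type, 48.8 in Rag2 KO, 40.9 in C57BL/6J wild type and 50.75 in IL-10 KO, and 66 members had at least 10 FPKM in every library. FPKM are scaled per length, so levels of genes can be set side by side only roughly. Values of members with near-identical copies are uncertain, as described below, and the medians include them. The highest mean was that of Cox4i1, a core nuclear subunit of complex IV, with 334, 303, 323 and 303 FPKM in the order BALB/c wild type, Rag2 KO, C57BL/6J wild type and IL-10 KO. All further lists of 4 values keep this order. Atp5b, the catalytic beta subunit of ATP synthase, had 234, 307, 267 and 286 FPKM, and Uqcrh, the hinge protein of complex III, had 326, 222, 228 and 226. These genes were thus expressed in every library at a level where counting error is small.

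**Figure D1:**
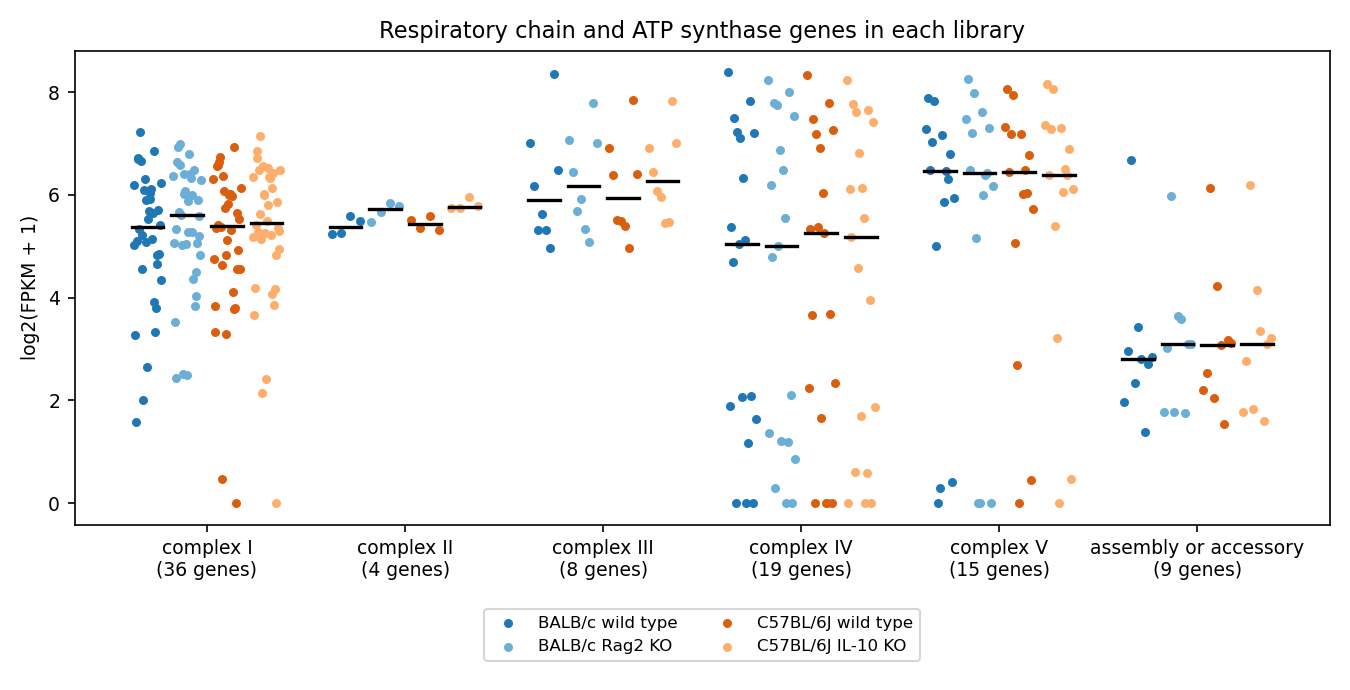
Each point is 1 gene, with log2(FPKM + 1) on the vertical axis, in the 4 libraries (colours), grouped by complex on the horizontal axis; black bars are medians over the genes of a complex. The 4 medians of a complex lie close together, and in complexes IV and V some genes lie near 0 in every library, apart from the other genes of their complex.

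By complex, the median in C57BL/6J wild type was 41.1 FPKM for complex I, 42.5 for complex II, 63.4 for complex III, 37.3 for complex IV and 86.3 for ATP synthase, against 7.45 for the assembly and accessory factors. The factors that build the complexes without staying in them, such as Ndufaf1 (4.03, 2.41, 3.13 and 2.59 FPKM) and Ndufaf4 (1.61, 2.38, 1.90 and 2.02 FPKM), had the lowest median of these groups. Cox7a2l, which joins complexes III and IV into supercomplexes, stood apart from the other factors with 101, 62.3, 69.6 and 72.5 FPKM.

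The spread between libraries was small for most members. Among the 69 members with a mean of at least 10 FPKM, the highest and the lowest library were at least 2-fold apart in FPKM + 1 for 2 genes, Ndufs5 and Cox5b, and at least 1.5-fold apart for 11. Over all 5913 genes at that level the shares were 16.6% and 37.1%. Over members of any level, 9 of 87 were 2-fold and 21 were 1.5-fold apart, beside 21.4% and 44.8% of all genes. The median range over the 4 libraries was 0.42 on the log2 scale for these members and 0.47 for all genes of that level. For a transcript of 850 nt, the length nearest the members' median, an FPKM of 50 stood for about 267 fragments in the shallowest library, which gives a 95% interval of 0.24 on either side of the log2 ratio of a pair of such values. An FPKM of 5 stood for 26.7 fragments (0.77 on either side). These intervals cover counting error only, and they are narrower for longer transcripts and wider for shorter ones. They are for FPKM without the added 1, which narrows them at low values.

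In the library labelled IL-10 KO most members were slightly higher than in C57BL/6J wild type, and few were far apart. The median log2 ratio of the 85 members with at least 1 FPKM in either library was 0.16 (quartiles -0.01 and 0.37), beside 0.00 for all 12790 genes tested, and 63 of the 85 lay above 0, where 49.8% of all genes did. At least 2-fold apart were 3 members, while 14% of all genes were: 2 were higher (10.1% of all genes) and 1 lower (3.82%). At 1.5-fold, 4 were higher and 3 lower, beside 16.5% and 10.9% of all genes, or 27.3% either way. Among the 71 members with at least 10 FPKM in either library, 56 lay above 0 and 1 was 2-fold apart, beside 50.3% and 13.5% of genes of that level. Few members were far apart in this pair.

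The succinate dehydrogenase genes of complex II, which also belongs to the citric acid cycle, all lay above wild type. Sdha, the flavoprotein, was at 44.8 FPKM in the wild type and 52.8 in IL-10 KO (log2 ratio 0.23). The iron-sulfur subunit gene Sdhb had 40.2 and 53.0 (0.39). For the membrane anchors Sdhc and Sdhd the values were 47.2 and 61.2 (0.37), and 38.6 and 53.9 (0.47). The ratios of the 4 genes thus ran from 0.23 to 0.47. In complex III, 7 of 8 genes were above 0, with the largest ratios for Uqcrq, a small subunit (83.7 and 128 FPKM, 0.61), Uqcrb, a subunit near the ubiquinone site (44.6 and 66.2, 0.56), and Uqcrfs1, the Rieske iron-sulfur protein (30.1 and 43.3, 0.51). The core protein gene Uqcrc1 had 44.2 and 60.9 FPKM (0.45), but the other core protein gene Uqcrc2 had 41.2 and 42.9 (0.06), so the subunits of this complex did not differ by a common factor.

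Complex I had a median of 0.26, with 26 of 35 genes above 0. Ndufb7, a subunit of the membrane arm, was at 63.0 FPKM in the wild type and 91.6 in IL-10 KO (0.53), and Ndufa9, at the junction of the arms, had 23.8 and 34.3 (0.51). Among the genes below 0 was Ndufb4, which has a near-identical copy, with 8.83 and 4.36 FPKM (-0.88). Ndufab1, the mitochondrial acyl carrier protein that is also a complex I subunit, had 0.386 and 3.42 FPKM (1.67). Its values in the BALB/c libraries were 3.05 and 4.70 FPKM, so C57BL/6J wild type was the library that stood apart.

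Complex IV had a median of 0.09, and its ratios ran from -0.80 (Cox6b2) to 1.51 (Cox5b), leaving out Cox4i2, which was listed at 0 in IL-10 KO. Cox5a, a matrix-side subunit, was at 39.2 FPKM in the wild type and 68.6 in IL-10 KO (0.79). Cox5b, the zinc-binding subunit, had 11.7 and 35.3 FPKM (1.51), with 24.996 and 26.6 in the BALB/c libraries. Here too C57BL/6J wild type was the library that stood apart. Cox4i1, Cox6c and Cox8a were slightly lower in IL-10 KO (-0.09, -0.09 and -0.13). ATP synthase had a median of 0.11 with 12 of 13 genes above 0, led by Atp5g1 (0.53), one of the genes of the membrane ring, and Atp5o (0.38), of the peripheral stalk, while the rotor gene Atp5c1 had 86.3 and 83.3 FPKM (-0.05).

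**Figure D2:**
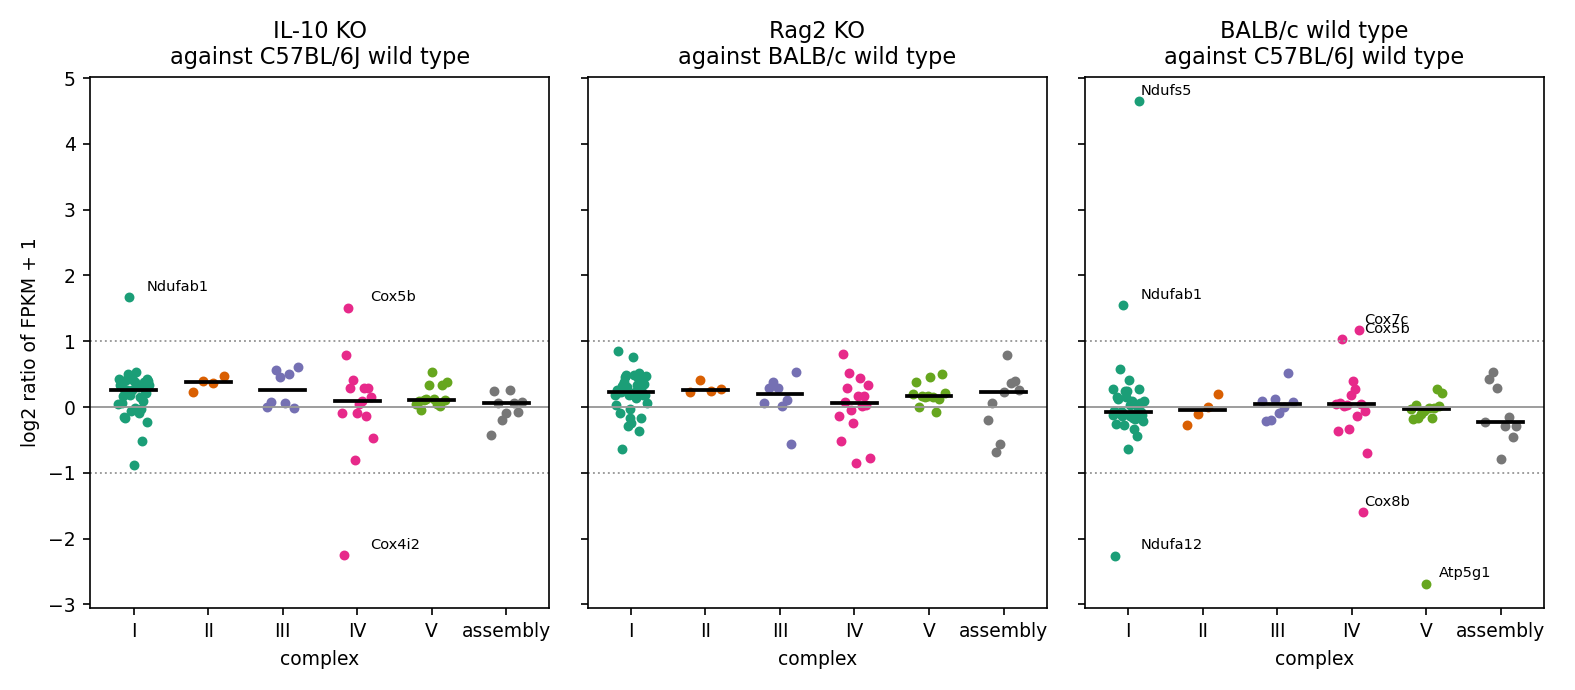
Log2 ratio of FPKM + 1 (vertical axis) for each gene, by complex (horizontal axis), in the 3 comparisons (panels); black bars are medians, dotted lines mark 2-fold, and genes past 2-fold are named. In both knockout comparisons the medians of all 5 complexes lie above 0, and genes past 2-fold number 3, 0 and 7 from left to right.

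In BALB/c the library labelled Rag2 KO showed a similar small offset. The median log2 ratio of 86 members was 0.20 (quartiles 0.02 and 0.35), beside 0.00 for all 12336 genes tested, and 67 lay above 0, where 49.5% of all genes did. None was at least 2-fold apart, while 6.45% of all genes were (4.42% higher and 2.03% lower). At 1.5-fold, 4 were higher and 4 lower, beside 10.3% and 7.65% of all genes, or 17.9% either way. Among the 71 members with at least 10 FPKM in either library, 58 lay above 0, beside 52.9% of genes of that level, of which 6.71% were 2-fold apart. Medians were 0.23 for complex I, 0.27 for complex II, 0.20 for complex III, 0.06 for complex IV and 0.17 for ATP synthase.

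The highest ratios were those of Ndufa12, an accessory subunit of complex I, at 1.99 FPKM in its wild type and 4.38 in Rag2 KO (0.85), of Cox5a with 40.8 and 71.8 (0.80), of the assembly factor gene Ndufaf3 with 5.95 and 11.04 (0.79), and of Ndufb7 with 64.5 and 110.1 (0.76). Among ATP synthase genes, Atp5k and Atp5g3 led with 0.51 and 0.45, and Atp5b had 0.39. The lowest ratios were those of Cox7a1, the muscle form of a complex IV subunit (3.17 and 1.302 FPKM, -0.86), Ndufa4l2 (2.12 and 0.818, -0.78), Cox7a2l (101 and 62.3, -0.69), Ndufa6 of complex I (148 and 94.3, -0.64) and Uqcrh (326 and 222, -0.55). The values of Ndufa12, Ndufa4l2 and Cox7a1, whose transcript has only 393 nt, lie below 5 FPKM, where counting error is large. For Ndufa6, Cox7a2l and Uqcrh the C57BL/6J libraries were near the Rag2 KO value (99.1 and 88.3 FPKM for Ndufa6, 69.6 and 72.5 for Cox7a2l, 228 and 226 for Uqcrh). BALB/c wild type was thus the library that stood apart for these genes, and the reason was not tested.

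The knockout comparisons share no library. Of 84 members tested in both, 56 lay above 0 in both (66.7%) and 12 below 0 in both. Of all 12048 genes tested in both, 32.5% lay above 0 in both, and of those with at least 10 FPKM, 36.1%. Across the 84 members the ratios of the comparisons had a Pearson correlation of 0.49 and a Spearman correlation of 0.52. Across all genes these were 0.56 and 0.48. These correlations are over genes, which are not independent. At least 1.3-fold higher in both were 9 members (Cox5a, Cox6b1, Ndufa9, Ndufab1, Ndufb7, Ndufv2, Sdhb, Uqcrb and Uqcrq), or 10.7%, beside 9.95% of all genes. At least 1.3-fold lower in both were Cox4i2 and Ndufa4l2, beside 7.2% of all genes. The share higher at 1.3-fold was near the background, whereas the share above 0 was not.

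**Figure D3:**
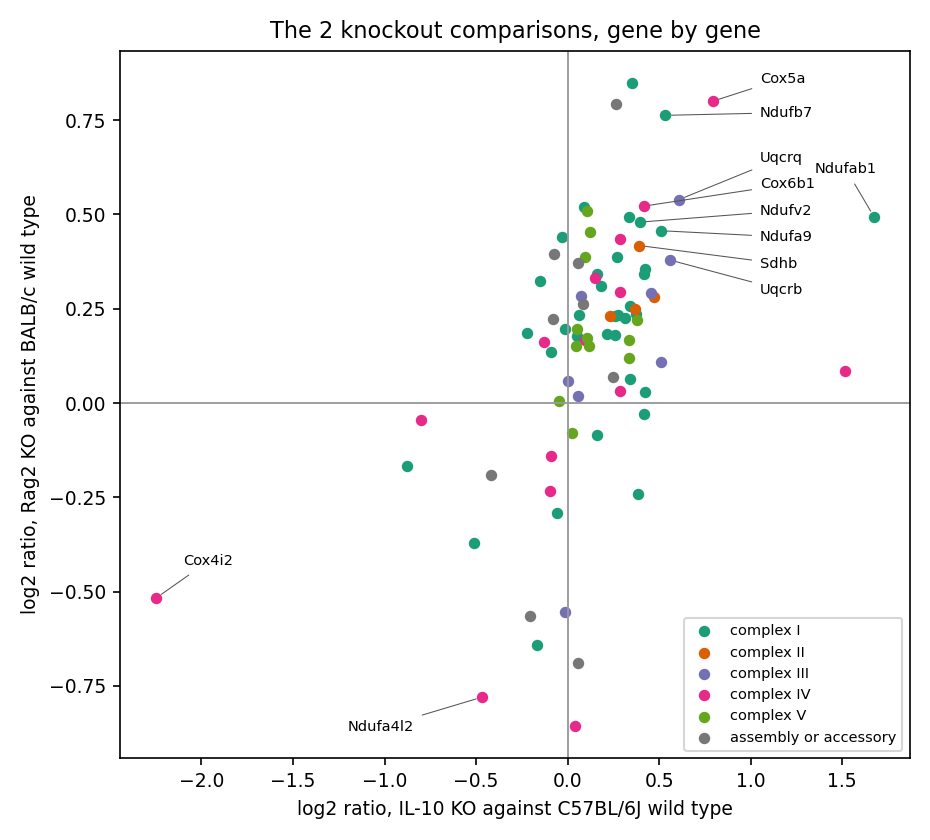
Log2 ratio of FPKM + 1 in IL-10 KO against C57BL/6J wild type (horizontal axis) and in Rag2 KO against BALB/c wild type (vertical axis) for each gene of the chain (points, coloured by complex; Cox4nb is left out). Most points lie where both ratios are above 0, and the named genes are the 11 at least 1.3-fold apart in the same direction in both comparisons.

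The size of the common offset depended on how libraries were scaled. When each library was scaled to the same sum without small RNA rows, the median of all genes moved to -0.13 for IL-10 KO and -0.14 for Rag2 KO. The members' medians then were 0.022 and 0.055, with 44 of 85 and 55 of 86 above 0, and 33 of 84 (39.3%) were above 0 in both, beside 22.0% of all genes. Relative to all genes the members thus stayed slightly higher, and whether their absolute level was higher cannot be read from these values. Beside the offset, the epithelial markers were higher in both knockouts (8 of 8 at least 2-fold, medians 1.62 and 1.91) and the smooth muscle markers lower (5 of 6 and 3 of 6 at least 2-fold, medians -1.08 and -1.06). The leukocyte markers were higher in IL-10 KO (8 of 8, median 3.30) and in Rag2 KO (1 of 8 at least 2-fold, median 0.41). The part of these cells in the offset was not tested, and in sorted bulk cells a change in the mix of cells and a change in the RNA of a cell cannot be told apart.

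Starts of some members' genes carry letters that are known as binding motifs of factors of mitochondrial genes. In RefSeq promoters (GRCm38.p6, 300 bases around the start, mostly upstream, 73 members matched) the NRF1 motif core GCATGCGC was found on either strand in 11 members (15.1%), beside 3.05% of all 27025 genes matched and 5.9% of those with a mean of at least 10 FPKM. The ETS motif CCGGAAG, which GABP binds, was found in 19 (26%), beside 9.93% and 20.3%, and the YY1 motif AAGATGGC in 9 (12.3%), beside 3.19% and 5.55%. No members' matches of different motifs shared bases, and 33 members (45.2%) had at least one of the motifs, beside 14.9% and 28.5%. A match describes letters only. The promoters of 3 widely expressed genes that were higher in both knockout libraries and that of the muscle form gene Cox8b are shown as examples chosen with their matches known, 5′ to 3′ on the gene's strand, with matches to the motifs in capitals:
Cox6a1 (chr5:115348909-115349208, minus strand): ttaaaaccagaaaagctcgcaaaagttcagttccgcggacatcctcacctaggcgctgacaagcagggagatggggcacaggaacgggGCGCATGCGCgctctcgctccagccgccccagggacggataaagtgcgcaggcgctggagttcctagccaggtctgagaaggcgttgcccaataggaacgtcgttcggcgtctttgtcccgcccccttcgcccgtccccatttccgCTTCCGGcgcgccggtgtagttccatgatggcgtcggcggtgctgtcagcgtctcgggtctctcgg
Cox6b1 (chr7:30626065-30626364, minus strand): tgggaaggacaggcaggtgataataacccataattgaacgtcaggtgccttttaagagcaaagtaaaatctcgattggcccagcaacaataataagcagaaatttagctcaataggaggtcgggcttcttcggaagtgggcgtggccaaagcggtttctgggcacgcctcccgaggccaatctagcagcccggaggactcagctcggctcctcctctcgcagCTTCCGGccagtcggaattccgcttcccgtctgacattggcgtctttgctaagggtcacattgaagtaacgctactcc
Ndufb7 (chr8:83566508-83566807, plus strand): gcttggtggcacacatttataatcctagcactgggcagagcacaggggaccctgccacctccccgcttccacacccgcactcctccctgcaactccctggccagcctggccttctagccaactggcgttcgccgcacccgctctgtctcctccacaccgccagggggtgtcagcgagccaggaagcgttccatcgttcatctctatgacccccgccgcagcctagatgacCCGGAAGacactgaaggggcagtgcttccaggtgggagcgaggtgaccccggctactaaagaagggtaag
Cox8b (chr7:140900397-140900696, minus strand): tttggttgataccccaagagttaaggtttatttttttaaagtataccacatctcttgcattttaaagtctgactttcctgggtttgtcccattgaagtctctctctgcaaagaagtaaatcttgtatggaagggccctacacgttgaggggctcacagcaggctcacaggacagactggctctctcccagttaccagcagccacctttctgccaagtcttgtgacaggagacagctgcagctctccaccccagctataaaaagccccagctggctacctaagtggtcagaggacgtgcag
Cox6a1 holds an NRF1 and an ETS match, and Cox6b1 and Ndufb7 hold an ETS match each. Cox8b holds none of the 3 motifs in this window. The gene of NRF1 itself had 8.55, 7.51, 9.45 and 8.25 FPKM, and Gabpa, the DNA-binding subunit of GABP, had 13.6, 12.0, 13.1 and 11.5. Both were slightly lower in each knockout library than in its wild type (-0.18 and -0.17 for Nrf1, -0.17 and -0.17 for Gabpa). So was Yy1 (-0.28 and -0.26), whereas Gabpb1, the gene of another GABP subunit, was higher in each (0.30 and 0.42). Of the transcriptional regulators tested, 9 of 14 lay above 0 in IL-10 KO and 5 of 15 in Rag2 KO. The shares of all genes above 0 were 49.8% and 49.5%.

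Isoforms of complex IV that are restricted to certain tissues had lower levels than the common form of their pair in every library. Cox6b2, known as a testis form, had 32.2, 31.2, 40.7 and 22.9 FPKM beside 149, 214, 145 and 194 for the common form Cox6b1. It made up 17.8%, 12.7%, 21.9% and 10.6% of the pair. Its share was lower in each knockout library than in the wild type of the same strain. The forms Cox7b2 and Cox8c were listed at 0 in all libraries, and Cox6a2, of heart and muscle, reached at most 0.528 FPKM. Cox7a1 made up 1.44% to 3.84% of its pair with Cox7a2. Cox8b, the heart and muscle form, made up 1.40% and 1.29% of its pair with Cox8a in the BALB/c wild type and Rag2 KO, and 5.07% and 6.75% in the C57BL/6J wild type and IL-10 KO. The transcripts of Cox7a1 and Cox8b are short (393 and 360 nt) and their FPKM low, so counting error in these shares is large.

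The isoform genes Cox4i2 and Ndufa4l2, whose expression is known to respond to low oxygen and which pericytes and smooth muscle cells are known to express, were lower in both knockout libraries. Cox4i2 had 2.70, 1.59, 3.75 and 0 FPKM, so it was listed at 0 in IL-10 KO. Ndufa4l2, a paralog of the complex IV subunit Ndufa4, had 2.12, 0.818, 4.08 and 2.68 FPKM. The log2 ratios in the IL-10 KO and Rag2 KO comparisons were -2.25 and -0.52 for Cox4i2, and -0.47 and -0.78 for Ndufa4l2. All values of both genes lie below 5 FPKM. For an 850 nt transcript the counting interval is 0.77 on either side at 5 FPKM and 1.73 at 1 FPKM. These intervals are for a ratio of plain FPKM, and the added 1 in the ratios given narrows them at low values. Counting error may still be as large as the smaller of these ratios. Beside them, the 5 pericyte markers summed to 75.3, 62.2, 62.6 and 42.9 FPKM, with 5 of 5 below 0 and 1 of 5 at least 2-fold lower in each knockout comparison, and the smooth muscle markers were lower as given above. Their part in these values was not tested. Hif1a, the oxygen-regulated transcription factor gene, had 24.0, 32.4, 22.5 and 53.3 FPKM.

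Between the wild types the median of the chain lay near 0, while some single members were far apart. The median log2 ratio of BALB/c against C57BL/6J over 87 members was -0.05, beside 0.00 for 12290 genes, and 40 lay above 0, where 50.7% of all genes did (49.3% of those with at least 10 FPKM). At least 2-fold apart were 7 of the 87, while 3.99% of all genes were (3.31% of those with at least 10 FPKM). BALB/c was higher for 4, Ndufs5, Ndufab1, Cox5b and Cox7c (1.81% of all genes), and lower for 3, Atp5g1, Ndufa12 and Cox8b (2.17%). At 1.5-fold, 4 were higher and 6 lower, beside 5.9% and 6.37%, or 12.3% either way. In 4 of them both BALB/c libraries lay at least 2-fold from both C57BL/6J libraries, as did 0.803% of all genes. Ndufs5 had 24.3 and 21.5 FPKM in BALB/c and 0.00569 and 0 in C57BL/6J. Atp5g1 was listed at 0 in both BALB/c libraries and had 5.43 and 8.27 FPKM in C57BL/6J. Ndufa12 had 1.99 and 4.38 FPKM against 13.3 and 17.2, and Cox8b, the heart and muscle form of a complex IV subunit, had 3.23 and 3.32 against 11.8 and 14.6.

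Of these 7 members, 6 have a near-identical copy elsewhere in the genome. A copy was counted where another GENCODE M21 transcript (GRCm38) matched at least 90% of the coding sequence at 98% identity or more, and 15 of the 92 members had one. They include Atp5g1 (Gm10039, 99.75% identity), Ndufa12 (Gm15920, 99.5%), Cox5b (Gm11273, 99.2%), Cox7c (Gm12338, 100%), Ndufab1 (Gm4459, 99.8%) and Ndufs5 (BC002163, 99.4%). Ndufb4 (Ndufb4c, 100%) and Uqcrb (Gm2962, 98.2%), named above for their ratios in the knockouts, are also among them. Of the 20 copies of all 15 members, 16 are annotated as processed pseudogenes. Of the 74 members tested without a copy, 1 was at least 2-fold apart between the wild types, Cox8b, and 1 in the IL-10 comparison, Cox4i2. Short reads can match a gene and such a copy equally well, so values of the 15 members are uncertain. Copies just below the cutoff were not counted, such as the best matches of Cox7a2l (97.6% identity) and Atp5o (97.0%). Values of such members may be uncertain as well. Of the copies of the 7 members, BC002163 and Gm10012, the other copy of Cox7c, have rows of their own. Gm10012 had 0.610, 0, 0.696 and 0 FPKM and Cox7c had 1.25, 1.28, 0 and 0.494. These values are near 0, and Gm12338 has no row of its own. The part of the copies in Cox7c and in the other members was not tested.

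For Ndufs5, an accessory subunit of complex I (chr4:123712710-123718202, minus strand, GRCm38), the copy BC002163 (chr16:42955631-42955949, named Ndufs5-ps in RefSeq) has its own row. BC002163 had 19.96, 23.7, 45.3 and 46.5 FPKM, the reverse of the Ndufs5 pattern. The sum of the rows was 44.2, 45.3, 45.3 and 46.5 FPKM, nearly equal in all libraries, and the Ndufs5 share of it was 54.9%, 47.6%, 0.0126% and 0%. The strain difference of Ndufs5 was thus not seen in the summed FPKM of gene and copy. The Ndufs5 transcript has 525 nt in GENCODE M21 and is longer than the span of BC002163. Equal sums of FPKM therefore need not stand for equal numbers of fragments. The sequences differ at 2 of 318 coding bases of the reference genome, which is that of C57BL/6J. Bases 33 to 152 of the coding sequence hold both differences, in capitals, 5′ to 3′ on the gene's strand:
Ndufs5: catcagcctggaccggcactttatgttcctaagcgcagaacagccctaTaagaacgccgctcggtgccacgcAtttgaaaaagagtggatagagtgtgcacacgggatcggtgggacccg
BC002163: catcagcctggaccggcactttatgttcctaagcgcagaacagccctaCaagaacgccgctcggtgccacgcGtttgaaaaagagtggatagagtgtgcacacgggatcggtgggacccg

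**Figure D4:**
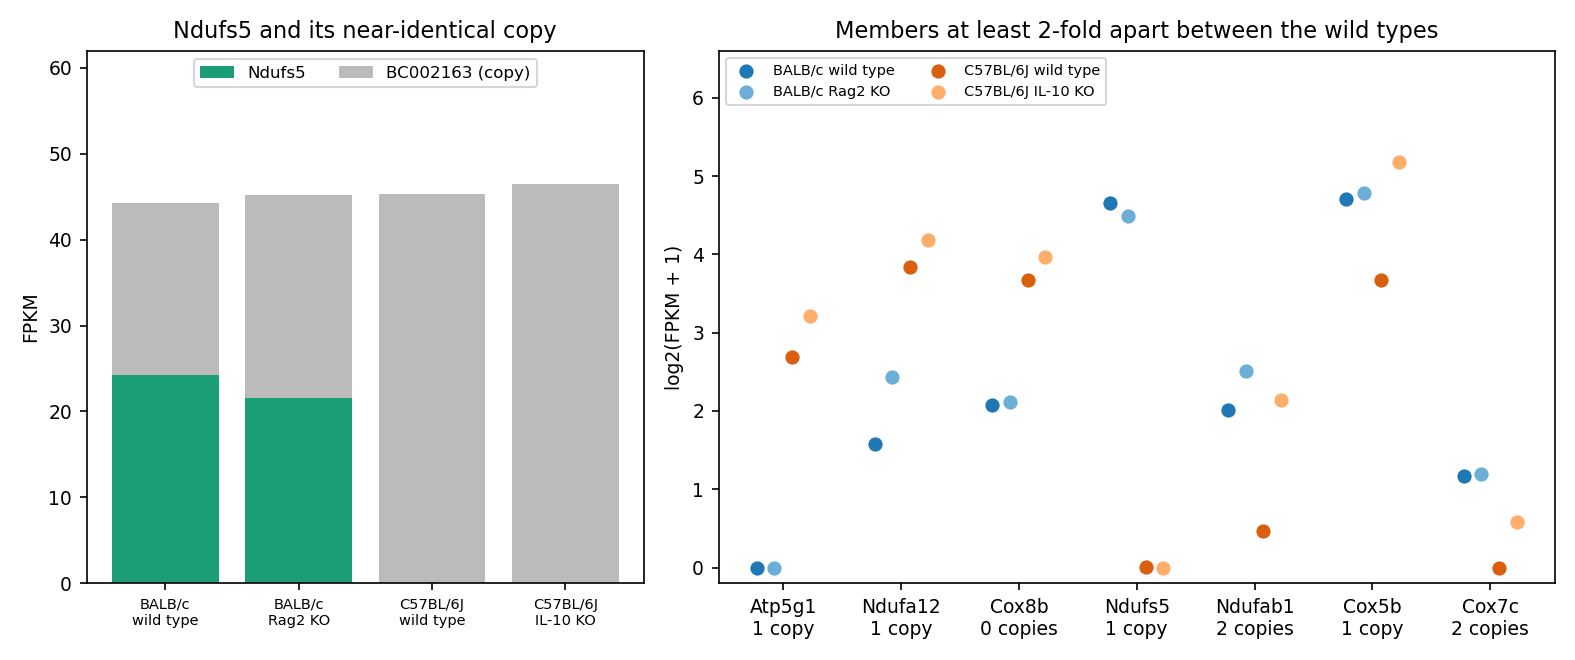
Left, FPKM (vertical axis) of Ndufs5 and of its copy BC002163, stacked, in the 4 libraries: the stacks reach 44.2 to 46.5 FPKM in all of them, while Ndufs5 is near 0 in both C57BL/6J libraries. Right, log2(FPKM + 1) of the 7 members at least 2-fold apart between the wild types, with the number of near-identical copies of each under its name.

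Copies also attend members that were near 0 in all libraries. Of the 5 members under 1 FPKM everywhere, Atp5g2 (0.228 FPKM in BALB/c wild type, and listed at 0 in the other libraries) and Atp5l (at most 0.390) have copies of 100% identity, and the others are the restricted forms Cox6a2, Cox7b2 and Cox8c. Cox7c, a subunit of every complex IV, had at most 1.28 FPKM and has 2 copies. Atp5g1, Atp5g2 and Atp5g3 are known to encode the same mature subunit c of the membrane ring, and Atp5g3, which has no such copy, had 142, 196, 144 and 157 FPKM. Whether the low values of Atp5g2, Atp5l and Cox7c reflect low expression was not tested. The housekeeping gene Gapdh, at 0.196 to 0.349 FPKM, was listed near 0 as well.

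Other mitochondrial genes were described from lists of their own. Of 18 citric acid cycle genes, none was at least 2-fold apart in any comparison, and the medians were 0.19 for IL-10 KO (13 above 0), 0.23 for Rag2 KO (13 above 0) and -0.01 between the wild types. Citrate synthase (Cs) had 32.1, 45.4, 37.4 and 44.6 FPKM, and Idh2, which makes NADPH in mitochondria, had 48.6, 44.8, 57.6 and 36.2. Of 74 mitochondrial ribosome genes tested, 1 was at least 2-fold higher in each knockout comparison, Mrpl47 (1.72 and 5.74 FPKM) in IL-10 KO and Mrps18c (14.7 and 31.9) in Rag2 KO, with medians of 0.12 and 0.20. For the 19 protein import genes the medians were 0.11 and 0.36, with the inner membrane translocase genes Timm23 (0.80 and 0.91) and Timm10 (0.82 and 0.75) highest. Timm10 had 5.47, 9.91, 6.49 and 12.2 FPKM. Timm23 had 1.26, 3.24, 1.44 and 3.24, below 5 FPKM, where counting error is large. Medians of 23 and 25 further chain genes, electron carriers and assembly factors, were -0.04 and 0.05, and Sco2, a copper chaperone of complex IV, was at least 2-fold lower in IL-10 KO (1.84 and 0.170 FPKM). Of the 14 and 15 transcriptional regulators tested, Hif1a was at least 2-fold higher in IL-10 KO (1.21), and their medians were 0.14 and -0.17. Ppargc1a, a coactivator of mitochondrial biogenesis, had 1.65, 0.742, 0.457 and 0.361 FPKM. Above 0 in the IL-10 KO and Rag2 KO comparisons were 45 and 53 of the 74 ribosome genes, 13 and 16 of the 19 import genes, and 11 of 23 and 15 of 25 further chain genes. Of all genes, 49.8% and 49.5% lay above 0 in these comparisons. At least 2-fold higher were 10.1% and 4.42% of all genes, and at least 2-fold lower 3.82% and 2.03%. Between the wild types 3.99% of all genes were at least 2-fold apart. Differences between these lists and the members were not tested.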

How the data were processed

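RNA of sorted stromal cells was sequenced in 4 libraries, 1 per group, prepared with a stranded mRNA kit per the labels. The values are FPKM computed by the authors, 1 per gene symbol. Per the submitters' processing notes, Cuffdiff 2.2.1, TopHat2 2.1.1, SAMtools 0.1.18 and Bowtie2 2.2.8 were used with build mm10. Annotation, multiply mapped reads and library normalization: not given in the sources used here. Differences were computed as log2 of (FPKM + 1) between a pair of libraries, for genes with at least 1 FPKM in either, and counted at 2-fold, with 1.5-fold beside it; 1.3-fold, used for both knockouts together, was chosen after the values were seen. No p-value was computed. The share of all tested genes past the same fold is the background. Members and lists were chosen with earlier results of these data known. Members named are the 10 highest and 10 lowest ratios of each comparison, the 10 highest levels, those past 2-fold or under 1 FPKM in every library, and isoform pairs; from other lists, up to 4 genes by absolute ratio. One member that meets this rule is not reported here. Further members, named to describe their complex, and Nrf1, Gabpa, Yy1 and Gabpb1 were chosen after their values were seen. Atp5s and Atp5sl were placed with the accessory factors because the proteins are not subunits of ATP synthase. The NRF1 motif was searched first in a longer form, and its core is reported. Depth was estimated by fitting whole fragments to low FPKM of 2339 genes with a single transcript of at least 1000 nt and a length offset of 210 nt: 72.9% to 75.6% of the values under 4.5 fragments came within 0.1 of a whole fragment. Copies were searched with BLAST 2.17.0 among GENCODE M21 transcripts. Scripts ran in Python 3.11.15 with pandas 2.3.3 and were checked on simulated data.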

Additional observations from a re-analysis of the deposited data

How the results depend on the processing

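Members at least 2-fold apart numbered 3 (IL-10 KO), 0 (Rag2 KO) and 7 (wild types, BALB/c against C57BL/6J), and the median log2 ratios were 0.16, 0.20 and -0.05. In the IL-10 comparison the count was 1 with a pseudocount of 5, 1 at 10 FPKM or more, 1 without members that have near-identical copies and 7 at a threshold of 1.5-fold. Its median was 0.15 with a pseudocount of 5, 0.14 with no filter on low values, 0.22 at 10 FPKM or more, 0.10 after rescaling by the 75th percentile, 0.022 after scaling to equal sums without small RNA rows, 0.22 for structural subunits, 0.24 for transcripts of at least 800 nt and 0.15 without near-identical copies. In the Rag2 comparison the count was 3 with a pseudocount of 0.1, 2 after scaling to equal sums and 8 at 1.5-fold. The median was 0.17, 0.18, 0.22, 0.13 and 0.055 under the first 5 of those settings, 0.22 for transcripts of at least 800 nt and 0.22 without Cox4nb, Atp5s and Atp5sl. Between the wild types the count was 4 with a pseudocount of 5, 4 at 10 FPKM or more, 4 for transcripts of at least 800 nt and 1 without near-identical copies. The median was -0.044, -0.026, -0.018 and -0.044 under the first 4 settings and reversed to 0.012 after scaling to equal sums. It was -0.056 after centring on all genes, -0.021 for structural subunits, -0.087 for transcripts of at least 800 nt, -0.020 without near-identical copies and -0.042 without Cox4nb, Atp5s and Atp5sl. Settings without near-identical copies or without those 3 genes were chosen after seeing the data. Leaving out members with a -ps symbol in the tables removed none. The cause of the other shifts was not tested. The medians of both knockout comparisons stayed above 0 under every setting tried. No paired analysis was possible because each group has 1 library and the labels give no replicate numbers, and no library could be left out. Depth limits members under 5 FPKM most.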
